A study of Mus musculus with 23 samples.

Results

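RNA of the axonal compartment was compared with RNA of the cell-body side in unstretched cultures of mouse hippocampal neurons, class by class and with each class set against other genes of the same somatic level. The comparison uses the 5 libraries titled control axon (replicates 1, 2, 3, 5 and 7) and the 6 titled control soma (replicates 1 to 6), which are 11 of the 23 libraries of the series. Neurons came from the hippocampi of C57Bl/6 pups of postnatal day 1, and 200000 cells were seeded into the cell-body side of a 2-sided microfluidic chamber, whose narrow grooves let axons, but in principle not cell bodies, pass to the other side. The cell-body side was coated with 100 µg/ml poly-D-lysine and 1 µg/ml laminin, and the axonal side with 500 µg/ml and 10 µg/ml. Both groups received magnetic nanoparticles at 5 µg/ml in the medium and no magnetic field gradient, so the particles are shared by all 11 libraries. The labels call the soma libraries a total culture while their protocol describes the somatodendritic compartment, so these libraries hold dendrites and any non-neuronal cells of that side too. No label says which libraries came from separate animals or dissections, and p-values therefore measure only the spread between these samples.

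An axon can lie far from its cell body, and part of its protein is made on the spot from mRNAs carried there by motor proteins and RNA-binding proteins. mRNAs for ribosomal proteins, for the respiratory chain and for parts of the cytoskeleton are among those known from axons of many neuron types. mRNAs for membrane receptors of dendrites, for nuclear transcription factors and for adhesion proteins are classically handled in the cell body or the dendrites, although exceptions are known.

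Axonal libraries held between 17972793 and 43048953 gene counts and soma libraries between 20457514 and 30451437, so their depths overlapped. The axonal libraries had counts for 4867 to 6029 genes in replicates 1, 2, 3 and 7 and for 10242 genes in replicate 5, which was also the deepest, against 22452 to 23981 genes in the soma libraries. Across genes, log2(CPM + 1) values of axonal library pairs correlated with Pearson r between 0.50 and 0.61, and those of soma pairs between 0.988 and 0.995, where CPM are counts per 1000000 counts of the library. A marker is taken as counted in axons here if at least 1 of the 5 axonal libraries had a count. All 20 neuronal markers were counted in that sense, with a summed level of 4178 to 8117 plain CPM against 10178 to 11979 in the soma libraries. Of 20 astrocyte markers, 18 were counted in axonal libraries, with a summed level of 7221 to 27591 against 8802 to 23941, and Ntsr2 and Gjb6 were at 0. Astrocyte marker RNA in the axonal libraries, labelled pure axons, thus overlapped that in the soma libraries, and its part in the results below was not tested. Microglial markers were counted for 7 of 15, with sums of 0.111, 1091, 114, 0 and 0.311 in axonal replicates 1, 2, 3, 5 and 7 against 99.2 to 195. Oligodendrocyte-lineage markers were counted for 7 of 15, with sums of 8.04 to 439 against 118 to 196. Fibroblast and pericyte markers were counted for 10 of 14, with sums of 1310, 2147, 378, 1193 and 1676 in axonal replicates 1, 2, 3, 5 and 7 against 560 to 626 in somata, so 4 of 5 axonal libraries were above every soma library, and Pdgfrb, Kcnj8, Tagln and Igf2 were at 0 in axons. Endothelial markers were counted for 3 of 10, with sums of 0 to 112 (highest in replicate 7) against 8.70 to 23.05. The part of these cell types in the results was not tested either. In such bulk libraries, fewer cells of a type and less RNA per cell cannot be told apart.

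Whether a gene was counted at all in an axonal library went with its somatic level. Genes were put into 7 bins by their mean CPM in the 6 control soma libraries, called the soma level here, and the share with at least 1 count was taken in each axonal library. Of 1876 genes at 1 to 3 CPM, a mean of 11.6% was counted per axonal library, against 28.4% of 3401 genes at 10 to 30 CPM and 47.8% of 3745 genes at 30 to 100 CPM. The share reached 72.1% of 1795 genes at 100 to 300 CPM and 99.1% of the 87 genes at 1000 CPM or more. Over all 13926 genes at 1 CPM or more it was 37.4% ± 13.8 (SD, n = 5), with the highest value, 61.7%, in replicate 5. Only 1418 of these genes (10.2%) were counted in all 5 axonal libraries, and 3542 (25.4%) in none of them. At a given soma level, short transcripts were also counted more often. At 30 to 100 CPM, 77.5% of 137 genes with a longest transcript under 1000 nt were counted, against 43.0% of genes with transcripts of 4000 to 6000 nt. Each class is therefore given against genes of the same soma level and, where it matters, against genes of the same soma level and transcript length.

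**Figure D1:**
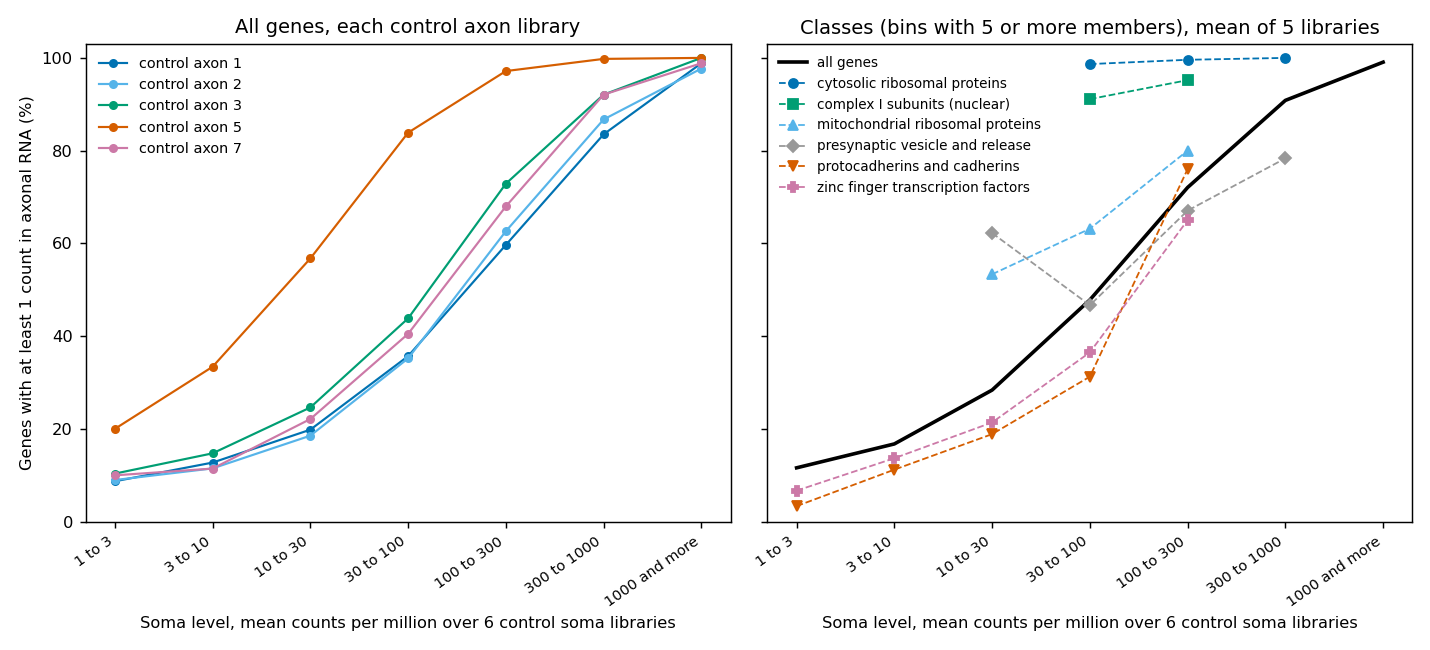
Share of genes with at least 1 count (percent, vertical axis) in each of the 5 control axon libraries, by bin of mean control soma CPM (horizontal axis), for all genes in the left panel and as the mean over the 5 libraries for chosen classes in the right panel. Cytosolic ribosomal protein genes lie near 99% at 30 to 100 CPM and at 100 to 300 CPM, where all genes lie at 47.8% and 72.1%, and protocadherins and zinc finger genes lie below all genes at 10 to 30 CPM.

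Cytosolic ribosomal proteins and nuclear genes of the respiratory chain were counted in axons more often than other genes of their somatic level, and protocadherins and cadherins, zinc finger transcription factors and solute carriers less often. Related lists did not all go the same way, since synaptic adhesion genes stood at 1.26 points and neuronal transcription factors at 4.83 points from level-matched genes, and glycolysis at -1.76 points. Among 56 classes, 19 were above their level-matched share in all 5 axonal libraries and 5 were below it in all 5. With matching on level and transcript length, 20 were above and 4 below, and 18 and 4 classes respectively met this in both matchings. These classes were chosen with earlier results of the data known, so the counts are a description without a test. In the stretched cultures of the series, which share no library with these, 45 of the 56 classes had a difference of the same sign.

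**Figure D2:**
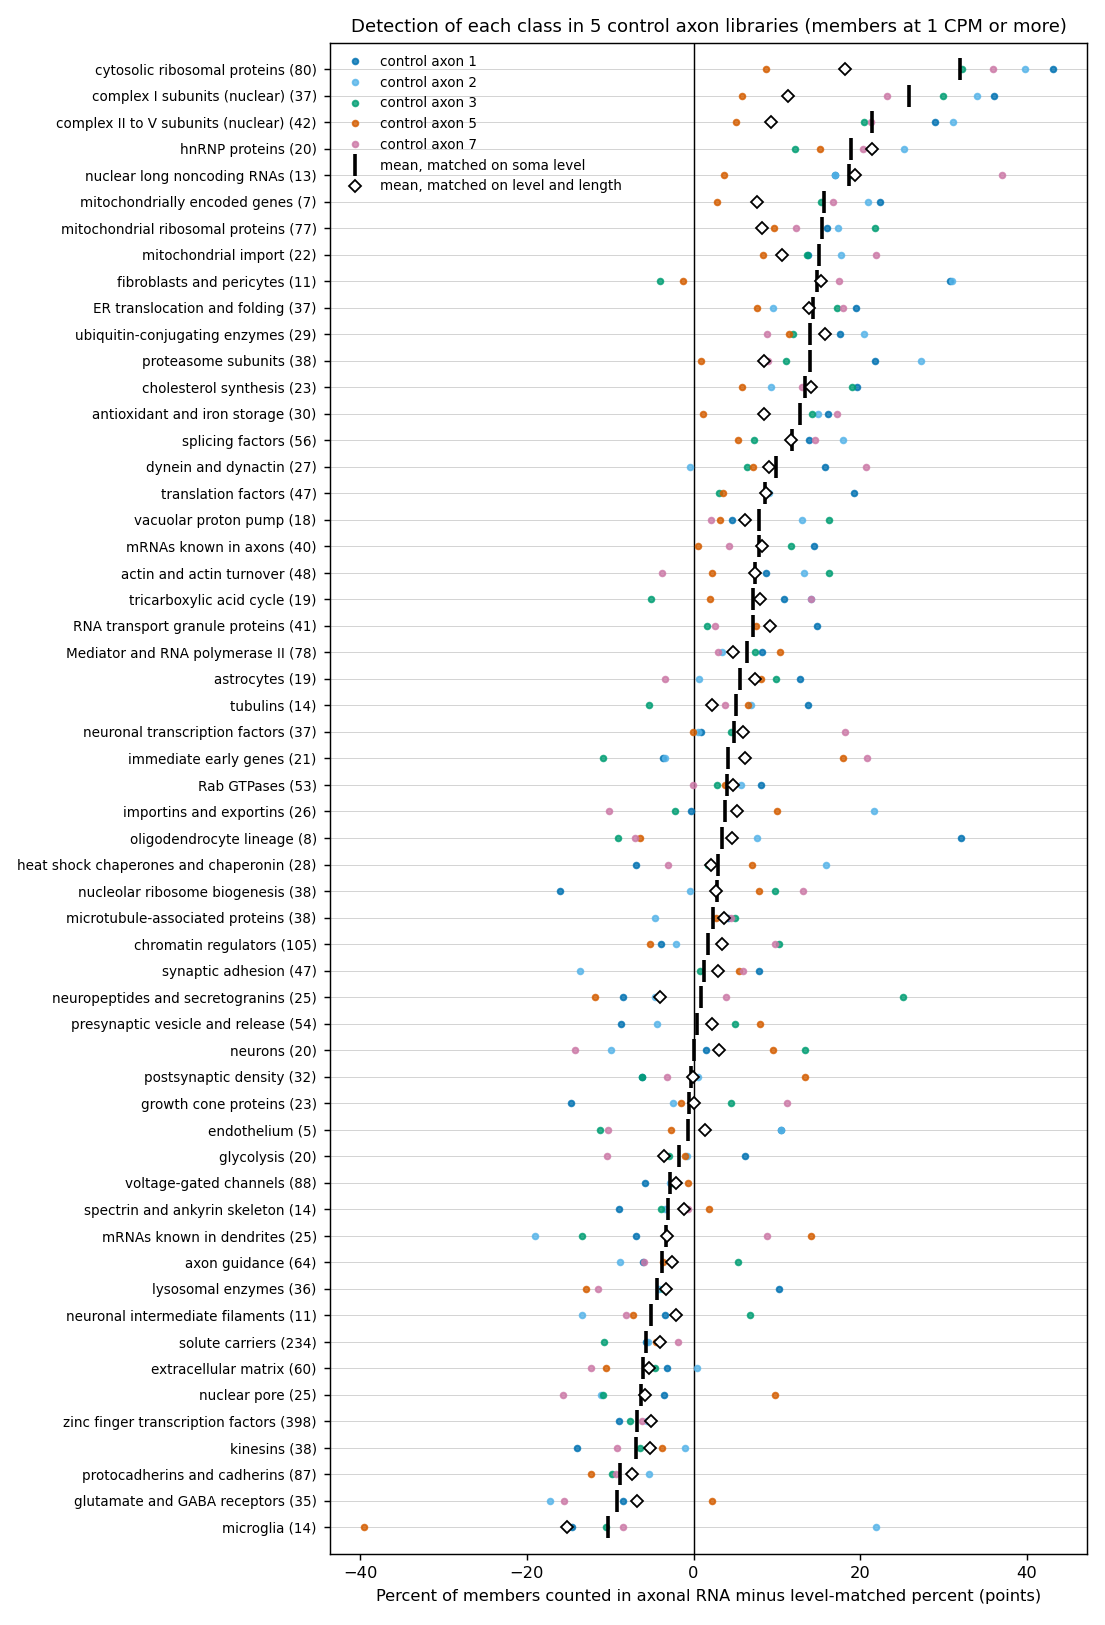
Difference between the share of class members counted in an axonal library and the share of genes at the same soma level (percentage points, horizontal axis), for each of the 56 classes (vertical axis, with the number of members at 1 CPM or more). Points are the 5 control axon libraries, bars their mean with matching on level and diamonds their mean with matching on level and transcript length. Cytosolic ribosomal proteins stand at 32.0 points with matching on level, and protocadherins stand at -8.80 points with all 5 libraries below 0.

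For single genes, edgeR's quasi-likelihood test with Benjamini-Hochberg adjustment was run on 14728 genes. It called 126 of them (0.856%) higher in axons and 5070 (34.4%) lower. Of the genes called lower, 3995 (78.8%) had no count in any control axon library. Such a gene could only be called lower or not at all, so its call repeats the absence of counts and adds no separate support. The median log2 fold change over all genes tested was -1.40 with TMM scaling and -1.27 with scaling by total counts, and class medians below stand beside that value. These background shares and medians cover genes of every soma level. Unlike the shares of genes counted, they are not matched on level, so they do not show whether a class is kept or lost at its level. Without axonal replicate 5, 7968 of 15205 genes tested were called lower, and class counts without that replicate stand beside that share. Fold changes and levels of single genes below are on the scale of TMM-normalised CPM. With no filter on low counts, which brought 30188 genes into the test, 39 of the 126 genes called higher were called again. Of the genes named below as higher, Rplp0, Rps2, mt-Co1, Fth1, Ftl1, Selenow, Tmsb4x and Kif1a were called under every alternative, and each of the others lost its call under at least 1.

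Cytosolic ribosomal proteins, which with ribosomal RNA build the translating ribosome, had the highest difference from level-matched genes among the 56 classes, though not with length matched too, where hnRNP proteins and nuclear long noncoding RNAs stood higher. At least 1 count was found in 98.8%, 97.5%, 98.8%, 100% and 98.8% of the 80 members at 1 CPM or more in axonal replicates 1, 2, 3, 5 and 7. Genes of the same soma level were counted at a mean of 66.8%, and the difference was 43.2, 39.8, 32.2, 8.71 and 35.9 points, or 32.0 ± 13.6 (SD, n = 5). Every library was above 0, and the difference was smallest in replicate 5, in which most genes of that level were counted. The longest transcripts of the class had a median of 1076.5 nt, against 3431 nt for all genes, and against genes of the same level and transcript length the difference was 18.2 ± 7.62 points. All 5 axonal libraries counted 76 of the 80 members (95.0%), where the level-matched share was 29.4%.

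Their share of all gene counts was 3.43%, 3.42%, 3.65%, 2.24% and 2.81% in the axonal replicates 1, 2, 3, 5 and 7, a mean of 3.11% ± 0.580 (SD, n = 5), against 1.44% ± 0.178 (SD, n = 6) in somata. The lowest axonal share lay above the highest somatic one. In edgeR, 29 of the 82 members tested were higher in axons and none was lower, beside the background of 0.856% and 34.4%, and the median log2 fold change was 0.75. Rplp0, a protein of the ribosomal stalk, had 2866, 2264, 3253, 1825 and 2048 normalised CPM in axons and a soma low, median and high of 531, 726 and 834. Every axonal library stood above every soma library, and the difference was 1.79 on the log2 scale (SE 0.18, edgeR adjusted p = 1.1e-05). Rps2, of the small subunit, followed with 1732, 1106, 1834, 1199 and 1079 in axons against 368 to 553 in somata, without overlap. Rpl4, of the large subunit, had 869 ± 355 in axons (SD, n = 5) and 826 ± 100 in somata (SD, n = 6) and an adjusted p of 0.93. The count of 29 fell to 18, 18, 17 and 18 without soma replicates 1, 3, 5 and 6 in turn, and 17 members were called in every fit that left out 1 library. With no filter on low counts 6 members were called. Ribosomal protein genes have near-identical pseudogenes, and reads aligned to several places (6.67% to 12.7% in axonal and 5.77% to 7.56% in soma libraries) were kept out of the gene counts, so single levels are uncertain.

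Vertebrate ribosomal protein transcripts typically begin within a run of pyrimidines, the 5′ terminal tract through which their translation is regulated. The windows below show where such a run lies at the annotated start of ribosomal protein genes called higher in axons, and are given to let the start sites be read beside the values. They come from RefSeq promoters of GRCm38.p6 (mm10) and hold 20 bases before and 10 bases from the start, 5′ to 3′ on the gene's strand. Capitals mark an unbroken run of C or T of at least 6 bases that covers the first transcribed base or a base next to it. The 5 genes called higher whose window held such a run were these.
Rps27 (chr3:90213639-90213668, minus strand): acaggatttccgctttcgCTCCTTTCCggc
Rpl12 (chr2:32961692-32961721, plus strand): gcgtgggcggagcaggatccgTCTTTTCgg
Rpl31 (chr1:39367831-39367860, plus strand): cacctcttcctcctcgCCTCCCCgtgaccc
Rpl35 (chr2:39005122-39005151, minus strand): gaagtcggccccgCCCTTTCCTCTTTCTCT
Rpl34 (chr3:130730328-130730357, minus strand): ccgCCCCTTCCTTTTCCTCTTCCggggacg
Rplp0 and Rps12 were also called higher, and their annotated windows held no such run. The calls of Rpl12, Rpl34 and Rps12 were lost without 1 or another library, and those of the other 4 genes shown were made in all 11 fits that left out 1 library.
Rplp0 (chr5:115559447-115559476, plus strand): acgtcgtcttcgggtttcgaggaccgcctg
Rps12 (chr10:23787200-23787229, minus strand): ttaaataccgtcatgcggccaccgccggcc
The run was present for 23 of the 58 ribosomal protein genes with a promoter entry (39.7%), and for 5 of the 22 called higher that had one (22.7%). It was present for 1626 of 10615 genes at 1 soma CPM or more (15.3%) and in 12.4% of all 32847 promoter windows. The tubulins held it in 5 of 11 genes (45.5%) and the mitochondrial ribosomal proteins in 9 of 68 (13.2%). A start that is annotated a few bases away from the one in use would hide the run, so a window without it says only that these letters are not there.

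Translation factors, which load and move the ribosome, were above their level-matched share by 8.64 points, with 78.7%, 70.2%, 72.3%, 95.7% and 74.5% of 47 members counted in the axonal libraries 1, 2, 3, 5 and 7. Their share of counts overlapped between groups (1.43% ± 0.163 in 5 axonal and 1.33% ± 0.0511 in 6 soma libraries). In edgeR only Eef1a1, which brings aminoacyl-tRNA to the ribosome, was higher among 47 tested (log2 fold change 0.54, SE 0.19, adjusted p = 0.043), and it was called in 3 of the 11 fits that left out 1 library (those without axonal replicates 1 or 3 or soma replicate 2). Eif2b5, a subunit of the exchange factor for eIF2, had no axonal count against 58.4 ± 23.8 normalised CPM in somata (SD, n = 6), at least 420-fold lower at the floor of 3 counts. This bound and those given for other genes cover counting error only, and not RNA missed before counting. Eef1a2, the isoform of Eef1a1 found in mature neurons and muscle, was lower too, at 3.02 ± 1.05 in somata (SD, n = 6) and counted in 1 axonal library. The abundant Eif4g2 and Eif4a1 were counted in all 5 axonal libraries, with adjusted p of 0.12 and 0.25.

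Genes of the respiratory chain formed the next group. Of the 40 nuclear genes of complex I, which passes electrons from NADH into the chain, 37 were at 1 CPM or more, and 91.9%, 91.9%, 97.3%, 100% and 86.5% of these were counted in axonal replicates 1, 2, 3, 5 and 7. The difference from level-matched genes was 25.8 ± 12.2 points (SD, n = 5), and 11.3 points with length matched as well. Of the 42 nuclear genes of complexes II to V, 37 were counted in all 5 axonal libraries, 21.4 ± 10.2 points above level-matched genes and 9.27 points above level- and length-matched ones. In every axonal library both classes were above 0.

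Their levels were less uniform than their presence. For complexes II to V, 8 of 42 genes were higher in edgeR and none lower, beside 0.856% and 34.4% of all genes. The median log2 fold change was 0.44. The share of counts was 1.59% ± 0.226 in axons (SD, n = 5) against 1.10% ± 0.118 in somata (SD, n = 6), without overlap. Cox6a1, a subunit of cytochrome c oxidase, had 876, 1283, 1698, 788 and 1421 normalised CPM in axons and 355 to 536 in somata, all axonal values above all somatic ones. The count of 8 fell to 5 without axonal replicate 7 and without soma replicates 2, 4, 5 or 6 in turn, and to 0 with no filter on low counts. In complex I only Ndufa3 was higher, with 244, 217, 384, 142 and 242 in axons against 68.3 to 108 in somata (log2 fold change 1.51, SE 0.42, edgeR adjusted p = 0.013). Atp5b and Atp5a1, subunits of the ATP synthase, had adjusted p of 0.72 and 0.63.

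The mitochondrial genome itself encodes 13 proteins of the chain, and 7 of them were at 1 CPM or more, all counted in every axonal library. The other 6, among them mt-Co2, mt-Co3 and mt-Atp6, were at or near 0 in every soma library as well. The 7 genes with counts took 4.55%, 1.92%, 6.83%, 1.10% and 1.70% of all counts in axonal replicates 1, 2, 3, 5 and 7, against 0.822% ± 0.030 in somata (SD, n = 6). All axonal libraries were above all soma libraries, and replicates 1 and 3 were highest. In edgeR 5 of 7 were higher and none lower, beside 0.856% and 34.4% of all genes, with a median log2 fold change of 1.39. mt-Cytb, of complex III, had 25476, 8029, 43306, 5579 and 8298 normalised CPM in axons against 4447, 4914 and 5305 (lowest, median and highest) in somata. mt-Co1 (chromosome M, 5328 to 6872 in mm10), the catalytic core of cytochrome c oxidase, had 4735, 2690, 7608, 2179 and 3110 against 524 to 914, with log2 fold change 2.51 and SE 0.32 (edgeR adjusted p = 4.9e-05). The count of 5 fell to 3 without soma replicates 1, 3, 4 or 5 in turn, and to 2 in the libraries numbered 4 and above.

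Nuclear genes for mitochondrial upkeep were counted often, but few were called in level. Mitochondrial ribosomal proteins were 15.4 ± 4.71 points above level-matched genes (SD, n = 5) and 8.28 points with length matched, and mitochondrial import genes 15.1 and 10.7 points. Of 77 mitochondrial ribosomal proteins tested, 1 was higher and none was lower. Without axonal replicate 5, 8 were lower, and in the libraries numbered 1 to 3, 14 were, while without any 1 of the 6 soma libraries none was higher. The counts of 8 and 14 stand beside 7968 of 15205 and 7803 of 14454 genes lower in those fits. Proteasome subunits, which form the main protease of the cytosol, stood 14.0 ± 10.5 points above (8.46 with length matched). Of the 38 tested, none was called in either direction, and Psmd2 had 878 ± 357 in axons (SD, n = 5) against 762 ± 48.6 in somata (SD, n = 6).

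Both chains of the iron store ferritin and 3 genes of peroxide and selenium metabolism were higher in axons. The class held 2.67% ± 0.775 of axonal counts (SD, n = 5) and 0.866% ± 0.141 of soma counts (SD, n = 6), and the groups did not overlap even without Fth1 (0.976% to 2.00% against 0.504% to 0.747%). Fth1, the ferritin heavy chain that oxidises and stores iron, had 12031, 13673, 10555, 6023 and 7351 normalised CPM in axonal replicates 1, 2, 3, 5 and 7 and a soma low, median and high of 1545, 2316 and 3004. The log2 fold change was 2.10 (SE 0.23, edgeR adjusted p = 1.9e-05). Ftl1, the ferritin light chain, Selenow, a small selenoprotein, Prdx1, which reduces peroxides, and Gpx4, which reduces lipid peroxides, were higher as well, at 1.91, 1.62, 1.13 and 1.08 on the log2 scale. Those 5 of 30 were called higher and 2 were lower, beside 0.856% and 34.4% of all genes. The 2 lower were Slc40a1, the iron exporter ferroportin, and Selenop, the selenium carrier, which had no axonal count and 30.8 ± 11.6 in somata (at least 221-fold lower). The remaining 23 members passed in neither direction. Prdx1 and Gpx4 lost their calls with no filter on low counts (adjusted p = 0.11 and 0.184 in edgeR).

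The cytoskeletal genes differed by family. Tubulins, the subunits of microtubules, held 0.912% ± 0.218 of axonal counts (SD, n = 5) against 1.74% ± 0.191 in somata (SD, n = 6), without overlap. Their presence was 5.1 points above level-matched genes, in 4 of 5 libraries. In edgeR 5 of 14 were lower, which is near the 34.4% of all genes, and none was higher. The median log2 fold change was -1.37, against -1.40 for all genes. Tuba1a, the main alpha-tubulin of young neurons, fell by 0.67 on the log2 scale (SE 0.21, edgeR adjusted p = 0.025). Tubb3, the neuronal beta-tubulin, had 16.5, 1148, 931, 1244 and 1212 normalised CPM in axons and 2716 to 3961 in somata, so all axonal libraries were below all soma libraries and replicate 1 was far below the rest. Its adjusted p was 0.070 and, without axonal replicate 1, 9.84e-06. The count of 5 became 3 without axonal replicate 2 and 8 without replicate 5, beside 7968 of 15205 genes in the latter fit.

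Microtubule-associated proteins held 1.94% ± 0.332 of axonal counts (SD, n = 5) against 3.43% ± 0.131 of soma counts (SD, n = 6), without overlap. In edgeR 8 of 38 were lower, a smaller share than the 34.4% of all genes, and the median log2 fold change was -1.10, against -1.40 for all genes. Neither background is matched on soma level. At 1000 CPM or more stood 9 of the 38, against 87 of the 13926 genes at 1 CPM or more. Map1b, which binds microtubules in growing axons and is translated there in several neuron types, had 5766 ± 1557 in axons and 11385 ± 1190 in somata, a fall by 0.98 on the log2 scale (SE 0.17, edgeR adjusted p = 0.00039). Mapt, which encodes tau, had 283, 558, 399, 1285 and 373 in axons against 1669 to 2179 in somata and was lower too. Map2, the dendritic member, had 21.4, 233, 628, 571 and 177 in axons against 672, 733 and 1032 (lowest, median and highest) in somata, with an adjusted p of 0.20. Every axonal library lay below every soma library for Map2.

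In actin and its turnover, members went both ways. Tmsb4x, which holds actin monomers, had 4737, 5663, 5293, 5616 and 5872 normalised CPM in axons against 1835, 2226 and 2914 in somata (lowest, median and highest), without overlap. Its log2 fold change was 1.26 (SE 0.11, edgeR adjusted p = 6.7e-06). The related Tmsb10 was higher at 0.89, profilin gene Pfn1 at 1.17 and tropomyosin gene Tpm4 at 1.11, though Tpm4 was called in only 4 of 11 fits that left out 1 library. Actb, the beta-actin mRNA long known for local translation in growth cones, went the other way, with 2162, 4709, 2386, 3802 and 1720 in axons against 7110 to 10937 in somata (log2 fold change -1.73, SE 0.26, edgeR adjusted p = 0.00014). Actg1 and the formin gene Diaph1, which had no axonal count against 22.5 ± 5.70 in somata, were lower too, as were Cap2 and Diaph2. Cfl1, cofilin, had 2266 ± 334 in axons and 2286 ± 372 in somata. As a class, 4 of 48 were higher and 5 lower, beside 0.856% and 34.4% of all genes, and its share of counts overlapped between groups. Without axonal replicate 5, 11 were lower, beside 7968 of 15205 genes in that fit.

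**Figure D3:**
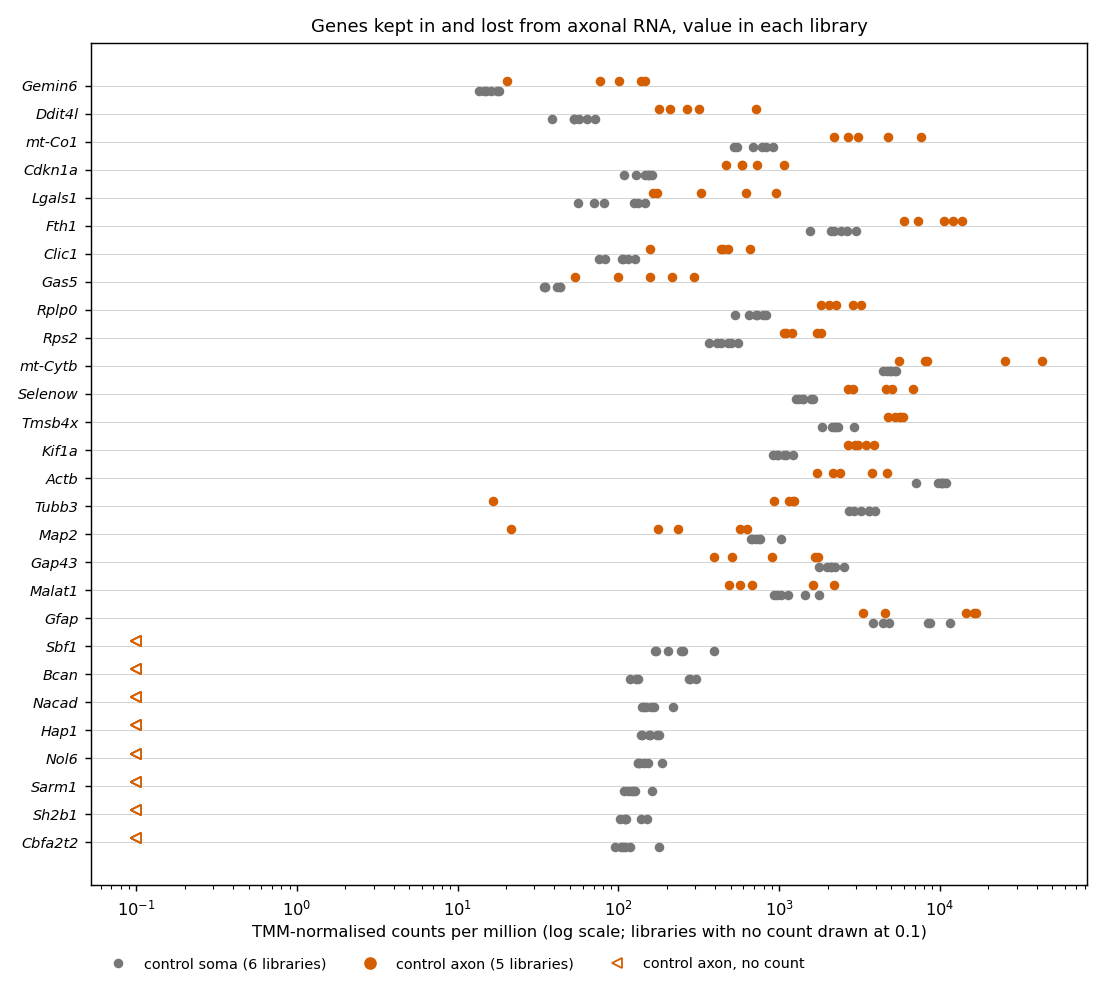
Normalised CPM (log axis) of single genes in each of the 5 control axon and 6 control soma libraries, one point per library, with open triangles for axonal libraries without a count. Rplp0, Fth1, Tmsb4x and Kif1a lie higher in every axonal library than in any soma library, and Actb lies lower in every axonal library.

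Kinesins, the motors that carry cargo along microtubules, were counted less often than level-matched genes, by 6.87 ± 5.01 points (SD, n = 5), with all 5 libraries below 0. With soma level taken per kilobase of transcript, the difference was -1.25 points. One member was higher in axons. Kif1a, which carries synaptic vesicle precursors, had 3915, 3098, 2953, 2668 and 3483 normalised CPM in axons against 913, 1029 and 1224 in somata (lowest, median and highest). Its axonal values were all above the somatic ones, and its log2 fold change was 1.63 (SE 0.12, edgeR adjusted p = 5.9e-06). In the same test 11 of 39 kinesins were lower, a smaller share than the 34.4% of all genes. Of these 11, 9 had no axonal count, among them Kif2c (at least 73.9-fold lower) and Kif13a (at least 48.2-fold lower). The median log2 fold change of the 39 kinesins was -1.74, below the -1.40 of all genes. Without axonal replicate 5, 19 kinesins were lower, beside 7968 of 15205 genes in that fit. Without Kif1a the kinesins took 0.378% to 0.552% of axonal counts and 0.469% to 0.592% of soma counts. Of the dynein and dynactin genes, which drive transport towards the cell body, 1 of 27 was lower, beside the 34.4% of all genes. Their share of counts was 0.319% against 0.522%, without overlap.

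Growth cone and presynaptic genes were counted near their matched share and took a smaller share of axonal than of soma counts. Growth cone proteins differed from level-matched genes by -0.577 ± 9.60 points (SD, n = 5), and presynaptic vesicle and release genes by 0.422 ± 6.89. Growth cone genes held 1.19% ± 0.326 of axonal counts (SD, n = 5) against 1.85% ± 0.0465 of soma counts (SD, n = 6), and presynaptic genes 0.845% ± 0.199 against 1.28% ± 0.0583, both without overlap. Gap43, a membrane protein of growth cones, had 1742, 394, 903, 1665 and 511 in axons against 1770, 2107 and 2540 in somata, with an edgeR adjusted p of 0.056. Of 23 growth cone genes 4 were lower, among them Rtn1, which fell by 1.61 on the log2 scale (SE 0.34, edgeR adjusted p = 0.0021), and Marcksl1. Of 54 presynaptic genes 10 were lower. With all 11 libraries, 4 of 23 and 10 of 54 are smaller shares than the 34.4% of all genes. That background is not matched on soma level, and 8 of the 23 growth cone genes were at 1000 CPM or more. The median log2 fold changes were -0.83 for growth cone and -1.19 for presynaptic genes, against -1.40. Without axonal replicate 5, 7 growth cone and 23 presynaptic genes were lower, beside 7968 of 15205 genes in that fit. Syt11 was counted in all 5 axonal libraries with an adjusted p of 0.93.

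Axon guidance genes, the ligands and receptors that steer growing axons, were -3.84 ± 5.47 points from level-matched genes (SD, n = 5), with 4 of 5 libraries below 0, and 2.53 points above them with soma level taken per kilobase. They were lower for 35 of 66 tested, beside 34.4% over all genes, with a median log2 fold change of -5.19 (-3.98 with genes of no axonal count at their bound). Of the 35, 17 had no axonal count. The ligand gene Slit1 had no axonal count against 47.3 ± 12.7 in somata, at least 340-fold lower. The receptor gene Nrp1 had 99.5 ± 113 in axons (SD, n = 5) and 558 ± 69.8 in somata (SD, n = 6) and was lower too.

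Receptor and postsynaptic genes took a smaller share of axonal than of soma counts. Glutamate and GABA receptor subunits were counted 9.21 ± 7.76 points less often than level-matched genes (SD, n = 5), with 4 of 5 libraries below 0, but -0.999 points from them with soma level taken per kilobase. They held 0.169% ± 0.104 of axonal against 0.366% ± 0.0428 of soma counts, without overlap. In edgeR 11 of 38 were lower, a smaller share than the 34.4% of all genes. The median log2 fold change of the 38 was -2.28, below the -1.40 of all genes. Without axonal replicate 5, 21 were lower, beside 7968 of 15205 genes in that fit. Grm2, a presynaptic metabotropic glutamate receptor, had no axonal count and was at least 244-fold lower. Postsynaptic density genes, scaffolds under the receptors, were counted at the matched share (-0.356 points) and held 0.0973% ± 0.0509 of axonal against 0.230% ± 0.0140 of soma counts, without overlap. Of 32 tested 8 were lower, also a smaller share than that of all genes, or 14 without axonal replicate 5. The median log2 fold change of these 32 genes was -2.38, below that of all genes too.

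Protocadherins and cadherins, adhesion proteins that give neurons surface identity, were counted less often than level-matched genes in every axonal library. The share of 87 members counted was 14.9%, 16.1%, 17.2%, 42.5% and 14.9% in axonal replicates 1, 2, 3, 5 and 7. Against level-matched genes the difference was -7.27, -5.34, -9.85, -12.3 and -9.28 points, a mean of -8.80 ± 2.63 (SD, n = 5). With length matched it was -7.38 points, and with soma level taken per kilobase of transcript -3.24 points. No axonal library counted 40 of the 87 (46.0%), where the matched share was 29.1%. In edgeR 49 of 88 were lower, beside the 34.4% of all genes, and none was higher, with a median log2 fold change of -7.37 (-4.81 with genes of no axonal count at their bound). Of the 49, 41 had no axonal count, so these calls largely repeat the missing counts. Pcdhb9, of the clustered protocadherins, and Cdh4 had no axonal count and soma levels of 52.6 ± 9.70 and 44.9 ± 6.16, at least 378-fold and 323-fold lower. Cdh2, N-cadherin, was counted in all 5 axonal libraries and was lower, at 45.8 ± 29.9 against 238 ± 58.0. Pcdh9, a non-clustered member, was counted in all 5 too, at 247 ± 143 against 220 ± 50.1, with an adjusted p of 0.91. Genes of the alpha and gamma protocadherin clusters share exons, and reads there can be set aside as ambiguous, so their single levels are uncertain.

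Zinc finger transcription factors, the most numerous family of DNA-binding proteins, were counted less often too. The share of 398 members counted was 12.8%, 15.3%, 18.8%, 49.5% and 17.6% in axonal replicates 1, 2, 3, 5 and 7, which was -8.98, -5.61, -7.69, -5.23 and -6.20 points from level-matched genes. The mean was -6.74 ± 1.56 (SD, n = 5), and -5.12 with length matched. In edgeR 185 of 409 were lower, beside 34.4% of all genes, and none was higher. No axonal library had a count for 133 of the 185. Without axonal replicate 5, 284 were lower, beside 7968 of 15205 genes in that fit. Zbtb17 and Zfp322a had no axonal count and 62.4 ± 7.51 and 56.9 ± 5.49 in somata, at least 449-fold and 409-fold lower. Zbtb20, a transcriptional repressor needed for hippocampal development, was counted in all 5 axonal libraries, at 953 ± 492 against 1152 ± 98.7. The family as a whole held 0.997% ± 0.215 of axonal and 1.12% ± 0.0934 of soma counts, with overlap.

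Solute carriers, the transporters of nutrients and ions, were -5.73, -5.52, -10.7, -4.50 and -1.89 points from level-matched genes in axonal replicates 1, 2, 3, 5 and 7, a mean of -5.68 ± 3.22 (SD, n = 5). Of 238 tested 88 were lower, near the 34.4% of all genes, and 138 without axonal replicate 5, beside 7968 of 15205 genes. Of the 88, 65 had no axonal count. The only member called higher was Slc25a5, an ADP/ATP carrier of the inner mitochondrial membrane, at 1012 ± 280 in axons (SD, n = 5) against 372 ± 43.9 in somata (log2 fold change 1.45, SE 0.21, edgeR adjusted p = 0.00013). Slc11a2, the iron importer DMT1, and Slc25a14, a mitochondrial carrier, were counted in no axonal library, at least 505-fold and 496-fold lower. Voltage-gated channels were -2.78 ± 1.86 points from level-matched genes with every library below 0, but stood at 1.64 points with soma level taken per kilobase. In edgeR 41 of 91 were lower, beside the 34.4% of all genes, and 31 of the 41 had no axonal count. Without axonal replicate 5, 64 were lower, beside 7968 of 15205 genes in that fit.

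Classes with a nuclear role were not all missing. hnRNP proteins, which coat pre-mRNA and also travel with transported mRNA, were above level-matched genes by 21.5, 25.3, 12.1, 15.2 and 20.4 points in axonal replicates 1, 2, 3, 5 and 7, or 18.9 ± 5.23 (SD, n = 5), and by 21.5 points with length matched. Their transcripts are not short (median 3714.5 nt). Of 20 tested, Hnrnpc was higher (log2 fold change 1.12) and Hnrnpa2b1 lower. Splicing factors were 11.8 points above and Mediator and RNA polymerase II genes 6.46 points above level-matched genes. Malat1, a nuclear long noncoding RNA, had 567, 676, 486, 2180 and 1613 normalised CPM in axons against 925, 1079 and 1774 in somata, with an edgeR adjusted p of 0.92, and the groups overlapped. Replicates 5 and 7 were the highest axonal libraries, and in the libraries numbered 1 to 3 alone Malat1 was lower (edgeR adjusted p = 0.042). The transcript is retained in nuclei in textbook accounts.

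**Figure D4:**
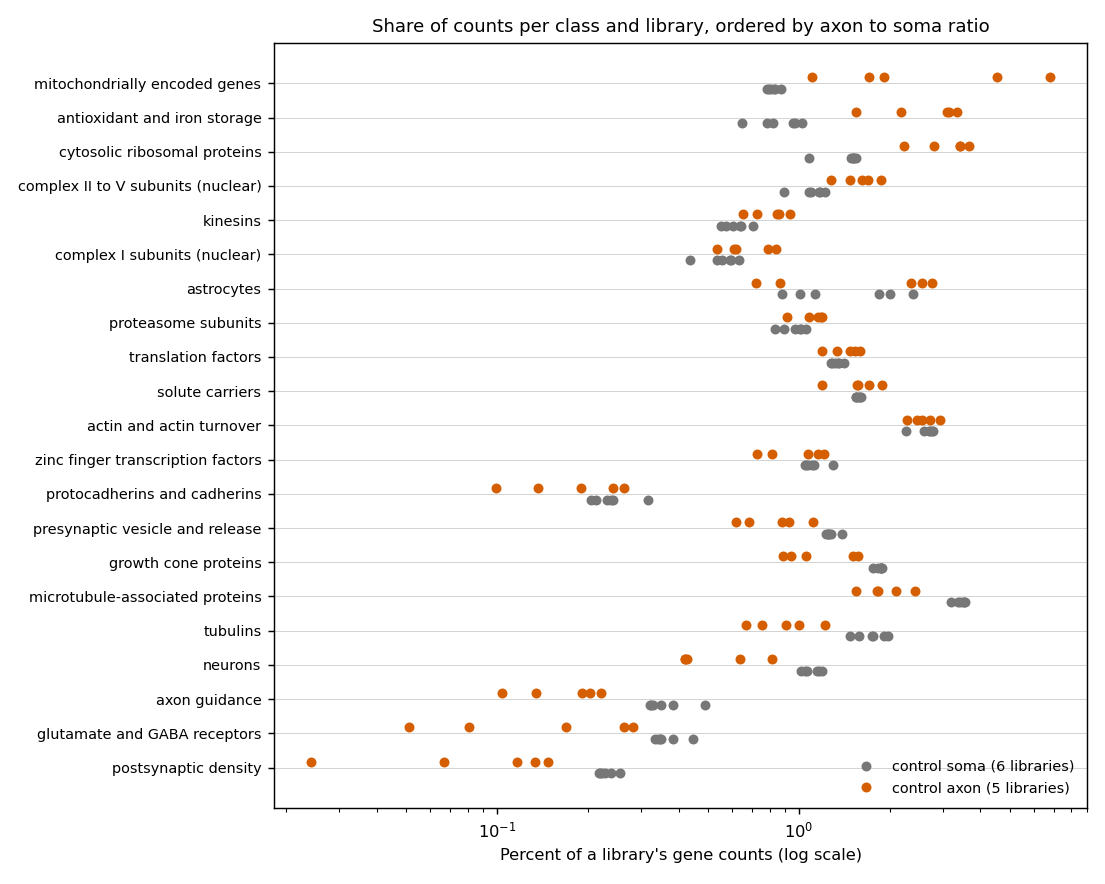
Share of all gene counts (percent, log axis) held by each described class in each of the 5 control axon and 6 control soma libraries. Mitochondrially encoded genes, antioxidant and iron storage genes and cytosolic ribosomal proteins lie higher in every axonal library than in any soma library, and tubulins and microtubule-associated proteins lie lower.

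Among genes counted in all 5 axonal libraries, 66 with a symbol other than a predicted-gene name were higher without overlap (0.686% of all genes tested were higher without overlap), and the 8 with the highest fold change were Gemin6, Ddit4l, mt-Co1, Cdkn1a, Lgals1, Fth1, Clic1 and Gas5. Gemin6 (chr17:80224441-80228497, mm10), a protein of the SMN complex that assembles spliceosomal particles, had 139, 77.0, 101, 20.1 and 146 normalised CPM in axons against 13.5, 15.6 and 18.0 in somata (log2 fold change 2.61, SE 0.67, edgeR adjusted p = 0.0081, and 0.211 in the libraries numbered 4 and above). Axonal replicate 5 lay close to the soma values and the others were far above. Smn1, which encodes the core protein of that complex and is reported from axons as protein, had no count in any axonal library against 45.9 ± 6.86 in somata (SD, n = 6). Smn1 was singled out after its values were seen. Ddit4l (chr3:137621612-137628333), a stress-induced inhibitor of mTOR signalling, had 315, 180, 717, 211 and 269 in axons against 38.7 to 71.9, a log2 fold change of 2.59 (SE 0.48).

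Cdkn1a, the cell-cycle inhibitor p21, had 584, 732, 470, 586 and 1075 in axons against 108 to 162 in somata, with every axonal library above every soma library (log2 fold change 2.28, SE 0.28, edgeR adjusted p = 3.4e-05). Lgals1, the sugar-binding protein galectin-1, ranged from 165 to 956 in axons and from 55.7 to 146 in somata. Clic1, an intracellular chloride channel protein, ranged from 158 to 654 against 75.4 to 127. Gas5, a long noncoding RNA whose introns hold small nucleolar RNAs and whose transcript begins with a pyrimidine run in textbook accounts, had 53.6 to 295 in axons against 34.2 to 43.4. All 8 genes were called in each of the 11 fits that left out 1 library, and Gas5 lost its call with no filter on low counts (edgeR adjusted p = 0.0617). With the replicate number as a block, only mt-Co1 and Fth1 kept the call. These 8 were chosen for their call, fold change and lack of overlap in these libraries. Their lack of overlap follows from that choice, and the choice favours calls in the fits that left out 1 library.

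At the other end, 8 genes had the highest soma level among those with no count in any axonal library. Sbf1, a myotubularin-related phosphatase-like protein, had a soma mean of 240 normalised CPM and was at least 1725-fold lower at the highest axonal floor of 3 counts, 0.139 normalised CPM per library. The folds given here are bounds for counting error only, and RNA missed before counting would make them too large. Bcan, the matrix proteoglycan brevican made largely by astrocytes, had 207 (at least 1486-fold lower), although other astrocyte transcripts were counted in axons. Nacad, Hap1, the huntingtin-associated transport adaptor, and Nol6, a nucleolar protein, had 163, 158 and 148. Sarm1, the NAD-cleaving enzyme that drives axon degeneration, had 109, 121 and 161 in somata (lowest, median and highest), at least 903-fold lower. Sh2b1, a signalling adaptor, and Cbfa2t2, a transcriptional corepressor, had 120 and 118. These 8 were chosen for having no axonal count, so their values are a description.

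Gfap, the intermediate filament of astrocytes, had 16779, 16304 and 14446 normalised CPM in axonal replicates 1, 2 and 3 and 3332 and 4532 in replicates 5 and 7. In somata it had 8469 to 11523 in replicates 1 to 3 and 3854 to 4846 in replicates 4 to 6, so the libraries numbered 1 to 3 were higher on both sides and the groups overlapped (edgeR adjusted p = 0.41). Within the libraries numbered 1 to 3 its adjusted p was 0.00916, higher in axons, and within those numbered 4 and above 0.617. No label names a batch for these numbers. In the libraries numbered 1 to 3 alone, 124 genes were higher and 7803 lower, and in those numbered 4 and above, 150 were higher and 6538 lower.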

How the data were processed

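Per the submitters' processing notes, reads were handled with fastp 0.20.1, STAR 2.7.08a and HTSeq 0.13.5 on mm10, with FastQC 0.11.9 and MultiQC 1.12. The deposited files hold raw counts per Ensembl gene ID made by the authors, followed by totals of reads not counted to a gene. Those rows were left out of library sizes and tests, and reads without a feature were 4.45% to 7.94% of axonal and 3.18% to 4.73% of soma totals. Poly(A) cDNA was amplified and carried molecular identifiers per the labels' protocols. Whether identifiers removed duplicates, the annotation and the strand setting are not given in the sources used here, so antisense and overlapping genes may share reads, and floors cover counting error only. Of 55487 gene IDs, 55141 matched a symbol.

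Counts were tested with edgeR 4.0.16 (filterByExpr, TMM, quasi-likelihood F test, robust, Benjamini-Hochberg threshold 0.05) in R 4.3.3, on the 11 libraries only. SE stands for standard error, taken as the absolute log2 fold change divided by the root of F. A gene counted in an axonal library had at least 1 count. Soma level is the mean of plain CPM over 6 soma libraries, in bins with edges at 1, 3, 10, 30, 100, 300 and 1000 CPM. Transcript lengths are those of the longest GENCODE M21 transcript, in bins with edges at 1000, 2000, 3000, 4000 and 6000 nt. For each class, the share of members counted minus the mean share of all genes in the members' bins was taken per axonal library. A fold against no axonal count uses the highest axonal floor of 3 counts per library as a lower bound for counting error only. The 56 gene lists and the members named were chosen with earlier results of these data known. Genes named are 6 listed ones (Actb, Tubb3, Map2, Gap43, Malat1, Gfap), the 8 with the highest fold change among those called higher in 5 of 5 axonal libraries without overlap, the 8 with the highest soma level and no axonal count, and in each class described up to 2 with the highest soma level counted in 5 of 5 and up to 2 counted in none. Some genes that this rule names are not reported here. Members called higher in a class, other members called lower and Rps2, Rps12, Mapt, Actg1 and Cap2 were named after their values were seen.

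Axonal and soma libraries with the same number were checked for pairing. After subtraction of the group mean, their values correlated at 0.024 to 0.073 across genes for the 4 shared numbers. The median between different numbers was -0.022, below all 4. These values are too small and too few to decide whether the numbers pair the libraries. The main test did not take them as pairs, and a fit with the number as a block is given as an alternative. The test and the matching were checked on simulated data, with outcomes that are not reported here. For the test, far fewer genes were changed there than were called here. That check therefore does not cover a comparison with 34.4% of genes lower. Alternatives were other scalings, DESeq2 1.42.0, no filter, other count minimums, bins, matchings and soma libraries, thinning to the smallest axonal total, and leaving out each library.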

Additional observations from a re-analysis of the deposited data

Results flagged for a closer look

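Within the control axon and control soma groups, 17 values stood far from the other libraries of their group by Dixon's test, where chance alone gives about 1 in 20 groups. Control axon replicate 5 had counts for 10242 genes, against 4867 to 6029 in the other axonal libraries, and its antioxidant and iron storage genes stood only 1.09 points above level-matched genes, against 14.3 to 17.2. Control axon replicate 1 had 16.5 normalised CPM of Tubb3, against 931 to 1244 in the other axonal libraries. Control axon replicate 3 had 717 of Ddit4l, against 180 to 315. In control axon replicate 2, microtubule-associated proteins were -4.63 points from level-matched genes, against 2.74 to 4.94 in the others.

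The other 12 were all control soma replicate 4. Its share of counts was low for cytosolic ribosomal proteins (1.08% against 1.49% to 1.54%) and for actin and its turnover (2.26% against 2.61% to 2.79%). It was high for zinc finger transcription factors (1.30% against 1.05% to 1.12%), protocadherins and cadherins (0.317% against 0.205% to 0.243%), presynaptic genes (1.39% against 1.23% to 1.28%) and axon guidance genes (0.489% against 0.322% to 0.383%). Actb was low there, at 7110 normalised CPM against 9710 to 10937. Map2 was high at 1032 against 672 to 764, Sbf1 at 396 against 169 to 254, Nacad at 217 against 140 to 168, Sarm1 at 161 against 109 to 126, and Cbfa2t2 at 178 against 94.6 to 117. Without this library 92 genes were higher in axons and 4486 lower, within the range of leaving out any other soma library (87 to 99 higher and 4449 to 4541 lower).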

How the results depend on the processing

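Across alternatives, 1420 values of class differences, class shares and counts of calls stayed within the replicate spread or within 1.5 times, 39 moved and 1 reversed. Of single-gene values, 1271 kept direction and side of the threshold, 333 lost the threshold, 9 passed it and 7 reversed. Genes called numbered 10714 with no filter (10589 lower) and 7927 in the libraries numbered 1 to 3 (7803 lower), and 4542 to 8151 when 1 library was left out (4449 to 7968 lower), lowest without soma replicate 3 and highest without axonal replicate 5. Genes called higher were 281 with DESeq2, which included all 126. With the replicate block over the numbers 1, 2, 3 and 5, 22 genes were higher and 5029 lower, against 81 and 4844 in the same libraries without it, and of the 8 genes with the highest fold change only mt-Co1 and Fth1 were called. Within the block fit 3 ribosomal proteins were higher. The correlations of same-numbered libraries were 0.024 to 0.073, against a median of -0.022 between different numbers, and could not decide whether the numbers pair them. Shares of counts were varied only by leaving out 1 library, and none moved beyond the replicate spread. Leaving out 1 of 5 axonal libraries cannot move their mean by more than their SD. The same holds for class differences and shares of genes counted, so such values among the 1420 do not test robustness.

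With level and length matched, class differences became 18.2 points for cytosolic ribosomal proteins, 8.28 for mitochondrial ribosomal proteins (8.36 with other genes only), 7.64 for mitochondrially encoded genes (7.74), 11.3 for complex I (11.6), 9.27 for complexes II to V (9.53) and -5.12 for zinc fingers. With soma level per kilobase they were 17.7 for cytosolic and 5.75 for mitochondrial ribosomal proteins, 10.0 for complex I, 7.43 for microtubule-associated proteins, -1.25 for kinesins, 11.2 for spectrins, 2.53 for axon guidance, -3.24 for protocadherins, -0.999 for receptors, 14.0 for RNA granule proteins, 10.3 for chromatin regulators, 2.76 for Mediator, 12.4 for astrocytes and 1.64, a reversal, for voltage-gated channels. Voltage-gated channels stood at -5.56 with at least 4 counts, -6.60 with at least 10 and -5.33 with stretched soma libraries for the level, and spectrins at -7.43 with at least 10 counts. With stretched soma libraries for the level, mitochondrial import stood at 23.7, intermediate filaments at 2.68 and zinc fingers at -9.03. The log2 fold change of Malat1 was 0.074 with total counts, 0.55 in the libraries numbered 4 and above and -0.54 to 0.054 when 1 library was left out. In the libraries numbered 4 and above, Gfap was at -0.18 and mt-Nd4 at -0.17. The cause was not tested for any of these. A floor of 3 counts was 0.0697 to 0.167 CPM in axonal libraries, and the common biological coefficient of variation in edgeR was 1.66.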

Other observations

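Enzymes of cholesterol synthesis, which growing membranes need, were counted in axons 13.3 ± 6.02 points more often than level-matched genes (SD, n = 5) and held 1.10% ± 0.213 of axonal counts against 0.745% ± 0.0867 of soma counts (SD, n = 6), without overlap. Cyp51, which removes a methyl group from lanosterol, was the only member of 23 called higher (edgeR adjusted p = 0.020), and it was called in 9 of the 11 fits that left out 1 library. Genes of translocation and folding in the endoplasmic reticulum, a membrane system that runs through axons, stood 14.4 ± 5.39 points above level-matched genes, and none of 37 was called in either direction. Ubiquitin-conjugating enzymes stood 14.0 points above, with 3 of 30 lower, beside the 34.4% of all genes. In the extracellular matrix list, Ncan, the proteoglycan neurocan, was higher (log2 fold change 1.26, edgeR adjusted p = 0.0050), though the groups overlapped. Its call was lost with no filter on low counts (edgeR adjusted p = 0.105) and in the libraries numbered 4 and above (0.291). Bcan, brevican, had no axonal count, and 26 of 61 members were lower, beside the 34.4% of all genes. Of the 26, 22 had no axonal count.

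Immediate early genes, the first responders of transcription to activity and stress, split by library number. They stood -3.62, -3.40 and -10.9 points from level-matched genes in control axon replicates 1, 2 and 3 and 17.9 and 20.8 points above them in replicates 5 and 7. The share of 21 members counted was 28.6% in each of replicates 1, 2 and 3, 90.5% in replicate 5 and 57.1% in replicate 7. Genes of RNA transport granules, whose proteins package mRNA for travel, stood 7.11 points above level-matched genes and held 0.436% ± 0.119 of axonal counts against 0.614% ± 0.0334 of soma counts, without overlap. In edgeR 7 of 41 were lower, a smaller share than the 34.4% of all genes, and the median log2 fold change was -0.86, against -1.40 for all genes. Neither background is matched on soma level.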
